A study of Ogataea parapolymorpha with 8 samples.

Results

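The genes described here are, by their Saccharomyces cerevisiae homologs or protein domains, linked to the oxidation of cytosolic NADH at mitochondria and to the making, use and uptake of glycerol in the yeast Ogataea parapolymorpha. They are 6 of the 5428 genes in the count table. GUT2 (OPAR_001648), NDE1 (OPAR_004935) and OPAR_001303 were chosen by gene number with their low levels in the mutant relative to the wild type already known, so those levels are treated as the values they were selected on. GPD1, GUT1 and STL1 are the genes that the authors' deposited table pairs with these genes of S. cerevisiae. GPP1 and GPP2, which code for the glycerol-3-phosphate phosphatases of S. cerevisiae, were looked for in the same way, and no gene in that table was paired with either. All 6 genes passed the filter on low counts.

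Glucose breakdown makes NADH in the cytosol, and the inner mitochondrial membrane does not let NADH through. In S. cerevisiae external NADH dehydrogenases such as Nde1 oxidise it at the outer face of that membrane and pass the electrons to ubiquinone. In the glycerol-3-phosphate shuttle Gpd1 uses NADH to make glycerol-3-phosphate, which Gut2 oxidises at the membrane, again passing electrons to ubiquinone. Glycerol-3-phosphate is also the entry to glycerol synthesis, while the proton symporter Stl1 takes glycerol up from the medium and the kinase Gut1 phosphorylates it for use. Gene names and roles below are those of the S. cerevisiae homologs in the authors' deposited table.

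Polyadenylated RNA from bioreactors was sequenced as 8 libraries, 2 per group. The mutant, strain IMX2167, carries deletions that the labels give as gut2 and ndi/nde, without listing the single NDI and NDE genes. Its cultures had air and 7.5 g/L glucose and were run as aerobic batches (pH 6) or as aerobic chemostats (pH 5, diluted at 0.1 per h). The wild type, strain CBS11895, was grown in chemostats of the same dilution at pH 6. Glucose was 20 g/L and Tween 80, a source of oleic acid, 420 mg/L in its micro-aerobic-labelled cultures. Its aerobic-labelled cultures had 7.5 g/L glucose with 84 mg/L Tween 80. Both wild-type groups also had urea in the medium, 10 mg/L ergosterol and the antifoam pluronic acid, none of which the labels name for the mutant. Strain and medium therefore cannot be told apart in any comparison of mutant with wild type, nor can pH where the mutant chemostat is compared. The mode of cultivation joins them where the mutant batch is compared with the wild-type chemostats. Within the mutant, pH 6 in batch and pH 5 in the chemostat cannot be told apart from the mode of cultivation. The mutant is 1 strain, and no mutant group shares every culture setting with a wild-type group.

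The libraries held 8731655 to 11126081 counts in the mutant and 6104949 to 6749184 in the wild type, so that 3 counts, taken as the floor of detection, equalled 0.270 to 0.491 CPM (counts scaled to the size of the library). Levels are given as CPM of libraries scaled by the TMM method, and changes as log2 ratios ± SE. Fewer cells with a transcript and less of it per cell cannot be told apart in RNA of a whole culture. A gene is said to have risen or fallen where edgeR's quasi-likelihood test gave a Benjamini-Hochberg adjusted p below 0.05 over the 5265 genes tested. Of 6 genes for oxygen-using steps of heme, sterol and fatty acid synthesis (HEM13, ERG1, ERG3, ERG11, ERG25 and OLE1), whose transcripts rise at low oxygen in S. cerevisiae, 6 were lower in the micro-aerobic-labelled libraries than in the aerobic-labelled ones. All 6 were called as lower, beside 22.3% of all genes tested. HEM13, for a heme synthesis enzyme, averaged 58.8 CPM in the micro-aerobic-labelled libraries and 1148 CPM in the aerobic-labelled ones. OLE1, for the fatty acid desaturase, had the smallest of the 6 changes, -0.47 ± 0.14 (adjusted p = 0.0143), which no longer passed without micro-aerobic-labelled replicate 1 (adjusted p = 0.158) or on library totals alone (adjusted p = 0.0590). In the mutant, which differs in strain and medium but had air, HEM13 averaged 133 CPM in batch and 86.5 in the chemostat. Both mutant means of HEM13, ERG1, ERG3, ERG11 and ERG25 lay nearer the micro-aerobic-labelled mean than the aerobic-labelled one. OLE1 was lower in both mutant groups (1209 and 1664 CPM) than in the micro-aerobic-labelled (3582) and aerobic-labelled libraries (4954). These 6 genes were chosen with their values known. They run against the oxygen labels, and whether the labels of the wild-type groups are exchanged was not tested. An exchange would turn the sign of every change between those groups and the group that each mutant comparison is set against. The wild-type groups are called by their labels throughout.

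All 6 genes have 1 exon, and none is overlapped by another gene in the deposited annotation of strain DL-1, which the coordinates below follow. GUT2 lies on Chr_03 at 740390 to 742327 on the plus strand, and OPAR_001303 on the same chromosome at 169092 to 170762, also on the plus strand. NDE1 lies on Chr_07 at 732835 to 734477 on the plus strand. GPD1 (OPAR_002317) and GUT1 (OPAR_002413) lie on Chr_04 at 598510 to 600695 and 748451 to 750354, both on the plus strand, and STL1 (OPAR_003543) on Chr_05 at 1290771 to 1292432 on the minus strand. OPAR_002317 is the homolog listed for both GPD1 and its paralog GPD2 of S. cerevisiae, so the name GPD1 here stands for either. OPAR_001303 has no S. cerevisiae homolog in the table. It carries the Pfam domains PF00070 and PF07992, pyridine nucleotide-disulphide oxidoreductase domains that NDE1 carries too.

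**Figure D1:**
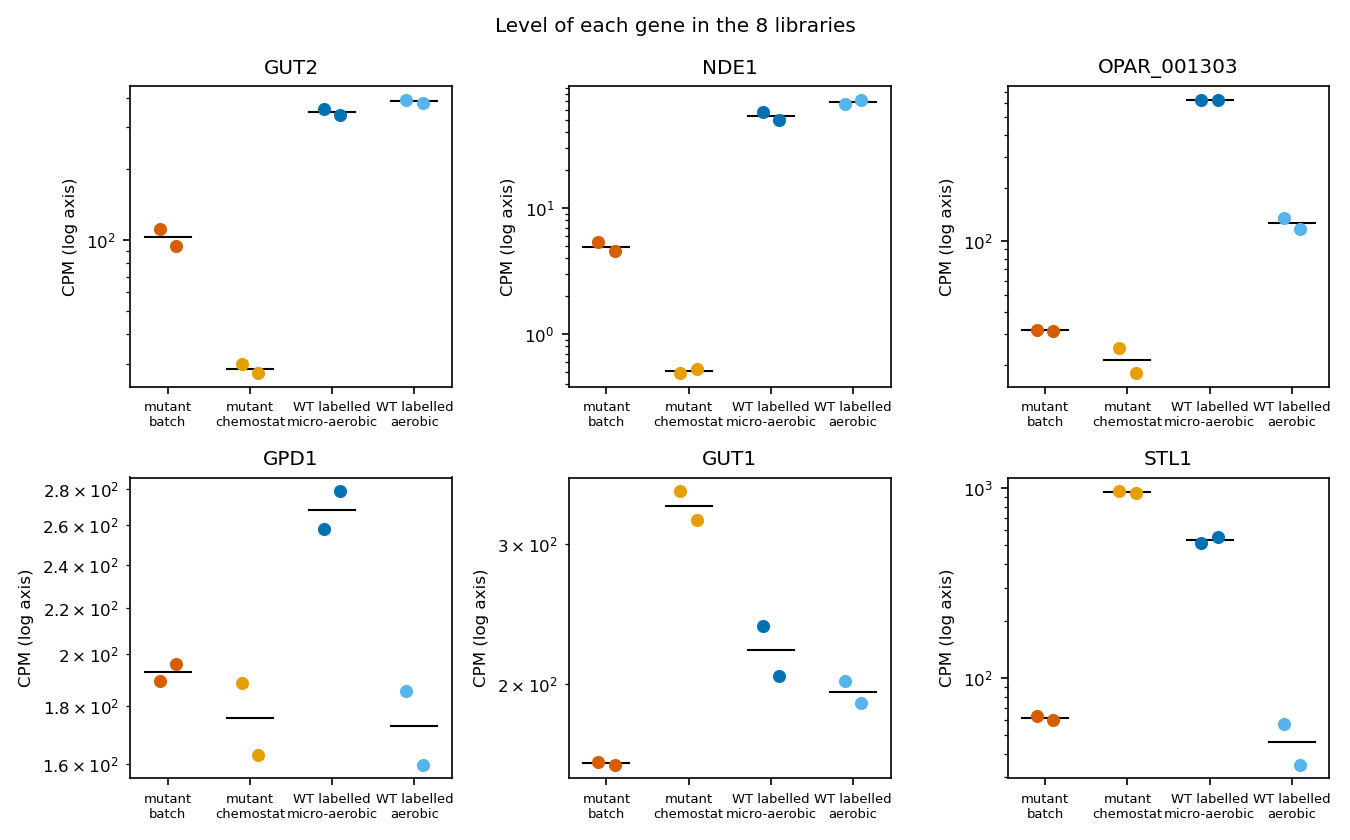
CPM of each of the 6 genes on a log axis in the mutant batch, the mutant chemostat, the wild type labelled micro-aerobic and the wild type labelled aerobic. Points are the 2 libraries of a group and bars their means; GUT2, NDE1 and OPAR_001303 are lower in both mutant groups than in both wild-type groups, while STL1 is high in the mutant chemostat (952) and the micro-aerobic-labelled libraries (536) and low in the mutant batch (61.7) and the aerobic-labelled ones (46.2).

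GUT2, for the FAD-dependent glycerol-3-phosphate dehydrogenase of mitochondria, is named in the mutant's genotype, yet reads were still counted in it. It stood at 111 and 94.8 CPM in the mutant batch, 29.8 and 27.3 in the chemostat of the mutant, 357 and 339.5 in the micro-aerobic-labelled libraries, and 393 and 381 in the aerobic-labelled ones. The 4 groups did not overlap, and every mutant library was below every wild-type library. The mutant libraries held 303 to 1084 read pairs in GUT2, far above the floor. The batch mean was 29.5% of the mean labelled micro-aerobic and 26.6% of that labelled aerobic, and the chemostat mean 8.20% and 7.38%. Which bases of GUT2 were removed is not given in the labels, so counts that remain in the gene cannot be split into those inside and outside the deleted part. No test is given for GUT2, NDE1 or OPAR_001303 between mutant and wild type, since the genotype or those very values led to their choice.

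Within the mutant, the counts left in GUT2 differed between the cultures. They were higher in batch by 1.85 ± 0.14 on the log2 scale (adjusted p = 1.6e-07), that is 103 ± 11.4 CPM in batch and 28.6 ± 1.76 in the chemostat (SD, n = 2 each). Between the wild-type groups GUT2 averaged 348 ± 12.7 CPM in the micro-aerobic-labelled libraries and 387 ± 8.16 in the aerobic-labelled ones. That change of -0.15 ± 0.13 did not pass the test (adjusted p = 0.362), and its sign turned on library totals alone (0.0062).

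NDE1, for the external type II NADH dehydrogenase, had the lowest CPM of the 6 genes in both mutant groups and in the micro-aerobic-labelled libraries. It stood at 5.34 and 4.55 CPM in the mutant batch, 0.492 and 0.531 in the chemostat of the mutant, 57.7 and 49.7 in the micro-aerobic-labelled libraries, and 66.4 and 72.1 in the aerobic-labelled ones. The chemostat values rest on 5 and 6 read pairs and the batch values on 47 and 52, against 311 to 457 in the wild-type libraries. In the mutant chemostat NDE1 was thus only just above 3 counts, and its mean was 0.952% of that labelled micro-aerobic and 0.738% of that labelled aerobic. In the batch 9.21% and 7.14% remained. Between the mutant cultures NDE1 was higher in batch by 3.23 ± 0.34 (adjusted p = 4.5e-06). With 11 counts over the chemostat group that SE lies below counting error, so this adjusted p understates the uncertainty. The wild-type groups did not overlap, with 53.7 ± 5.71 CPM in the micro-aerobic-labelled libraries and 69.2 ± 4.07 in the aerobic-labelled ones, but the change of -0.37 ± 0.17 did not pass the test (adjusted p = 0.0997).

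OPAR_001303 shares the domain make-up of NDE1 but not its pattern over the wild-type cultures. Whether it is among the deleted ndi/nde genes is not given in the labels. It stood at 31.7 and 31.1 CPM in the mutant batch, 24.9 and 18 in the chemostat of the mutant, 624 and 630.0 in the micro-aerobic-labelled libraries, and 135 and 118 in the aerobic-labelled ones. In the wild type it rose in the micro-aerobic-labelled libraries by 2.31 ± 0.15 (adjusted p = 3.0e-08), with 627 ± 4.34 CPM there and 126 ± 11.9 in the aerobic-labelled ones. The batch level was 5.01% of that labelled micro-aerobic and 24.9% of that labelled aerobic, and the chemostat level 3.42% and 17.0%. What remains of OPAR_001303 in the mutant, 204 to 356 read pairs per library, thus depends on which wild-type group it is set against. Within the mutant it was higher in batch by 0.55 ± 0.17 (adjusted p = 0.0132), with 31.4 ± 0.404 CPM in batch and 21.5 ± 4.84 in the chemostat. That call was lost without batch replicate 1, batch replicate 2 or chemostat replicate 2 (adjusted p = 0.0680, 0.0584 and 0.0909).

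The domain entries of OPAR_001303 in the annotation are held exactly by 4 genes, NDE1 and OPAR_001303 among them. The other 2, OPAR_000205 and OPAR_001939, were chosen after their values were seen, and neither has an S. cerevisiae homolog in the table. OPAR_000205 averaged 363 ± 25.7 CPM in the mutant batch, 189 ± 31.6 in the mutant chemostat, 86.7 ± 3.57 in the micro-aerobic-labelled libraries and 164 ± 20.7 in the aerobic-labelled ones. It was higher in the mutant batch than in the micro-aerobic-labelled libraries by 2.07 (adjusted p = 1.6e-07) and than in the aerobic-labelled ones by 1.15 (adjusted p = 3.1e-05). In the mutant chemostat it was higher than in the micro-aerobic-labelled libraries by 1.12 (adjusted p = 2.0e-04), and its change of 0.21 against the aerobic-labelled ones did not pass the test (adjusted p = 0.245). OPAR_000205 was therefore not low in the mutant, unlike NDE1 and OPAR_001303.

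OPAR_001939, the fourth gene with these domain entries, averaged 5.35 ± 0.635 CPM in the mutant batch, 31.0 ± 3.0 in the mutant chemostat, 36.2 ± 0.648 in the micro-aerobic-labelled libraries and 42.8 ± 5.77 in the aerobic-labelled ones. It was low in the batch and near the wild-type levels in the chemostat, the reverse of what NDE1 showed within the mutant. It was lower in batch than in the mutant chemostat by 2.54 on the log2 scale (change -2.54, adjusted p = 4.0e-07). Its change between the mutant chemostat and the aerobic-labelled libraries, -0.47 with an adjusted p of 0.0412, was no longer called without aerobic-labelled replicate 2 or chemostat replicate 2 (adjusted p = 0.171 and 0.106).

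The genes next to the 3 low ones were examined, because the authors counted reads without regard to strand and genes lie close together. After GUT2, 17 bases away and on the opposite strand, lies OPAR_001649, the homolog of YLR151C (PCD1, a Nudix hydrolase gene). It averaged 87.4 CPM in the mutant batch, 1738 in the mutant chemostat, 85.4 in the micro-aerobic-labelled libraries and 68.1 in the aerobic-labelled ones. The difference of OPAR_001649 between mutant chemostat and the aerobic-labelled libraries was 4.67 on the log2 scale, and in the batch 0.36. The next gene on, OPAR_001650, averaged 53.5, 189.9, 70.5 and 61.5 CPM in the same order of groups. Both were thus highest in the mutant chemostat, where the counts left in GUT2 were lowest. On the other side, 67 bases before GUT2 and on the same strand, lies OPAR_001647, the homolog of YHR069C. It averaged 136 CPM in the mutant batch, 89.8 in the mutant chemostat, 90.8 in the micro-aerobic-labelled libraries and 105 in the aerobic-labelled ones. Like the counts left in GUT2, it was higher in the mutant batch than in the mutant chemostat. The part of reads from neighbouring genes in the counts left in GUT2 was not tested.

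Next to NDE1, OPAR_004936 abuts with 0 bases between, on the opposite strand, and had 9.02 CPM in the mutant batch, 6.85 in the mutant chemostat, 6.38 in the micro-aerobic-labelled libraries and 5.72 in the aerobic-labelled ones. OPAR_004934, 127 bases before NDE1, averaged 88.4, 43.0, 44.7 and 167 CPM in the same order of groups. It lies on the same strand as NDE1. Like NDE1, it averaged more in the mutant batch than in the mutant chemostat, and more in the aerobic-labelled libraries than in the micro-aerobic-labelled ones. Unlike NDE1, it was not below both wild-type groups in the mutant, with a chemostat level near that labelled micro-aerobic. The part of its reads in the counts left in NDE1 was not tested. Beside OPAR_001303, OPAR_001304 lies 34 bases on and on the opposite strand, with 55.3 CPM in the mutant batch, 51.0 in the mutant chemostat, 29.4 in the micro-aerobic-labelled libraries and 34.3 in the aerobic-labelled ones. Of the 12 genes within 2 places of GUT2, NDE1 or OPAR_001303, 1 averaged less in both mutant groups than in both wild-type groups. This was OPAR_001646, the homolog of YKR098C and the second gene before GUT2. It averaged 63.5 CPM in the mutant batch, 79.1 in the mutant chemostat, 192 in the micro-aerobic-labelled libraries and 103 in the aerobic-labelled ones. The share of all genes with that order of groups was not counted, so the 1 of 12 is not a result about the neighbours.

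**Figure D2:**
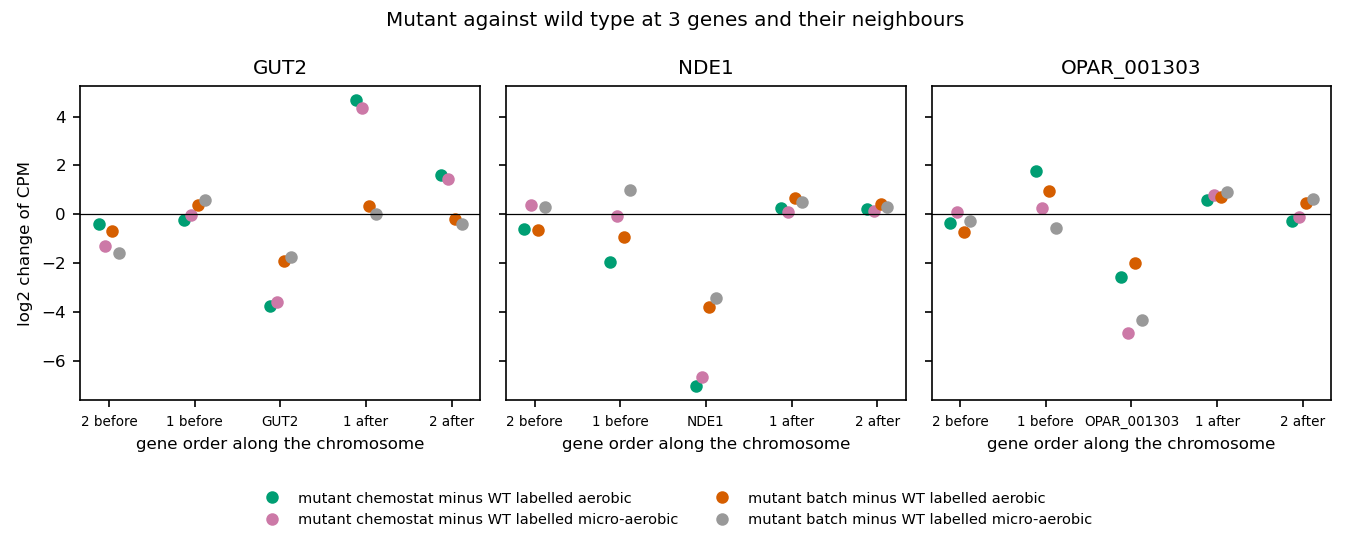
Log2 change of CPM between mutant and wild type at GUT2, NDE1 and OPAR_001303 and the 2 genes on either side along the chromosome, for the mutant chemostat and the mutant batch each against both wild-type groups. The 3 genes named by number lie below 0 in all 4 comparisons, and the gene after GUT2 lies at 4.67 and 4.35 for the mutant chemostat and at 0.36 and 0.03 for the mutant batch.

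GPD1, for the NAD-dependent glycerol-3-phosphate dehydrogenase of the cytosol, had the narrowest range of the 6 genes, with 1.55-fold between its highest and lowest group mean. It stood at 189 and 196 CPM in the mutant batch, 189 and 163 in the chemostat of the mutant, 258 and 279 in the micro-aerobic-labelled libraries, and 186 and 159.9 in the aerobic-labelled ones. The libraries labelled micro-aerobic lay above all others, and the mutant chemostat overlapped the aerobic-labelled libraries. In the wild type GPD1 rose in the micro-aerobic-labelled libraries by 0.64 ± 0.14 (adjusted p = 0.00183), with 268 ± 14.7 CPM there and 173 ± 18.3 in the aerobic-labelled ones. Within the mutant it averaged 193 ± 4.76 CPM in batch and 176 ± 18.1 in the chemostat, a change of 0.13 ± 0.13 that did not pass the test (adjusted p = 0.427).

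GUT1, for glycerol kinase, stood at 160.0 and 159 CPM in the mutant batch, 349.8 and 321 in the chemostat of the mutant, 237 and 205 in the micro-aerobic-labelled libraries, and 202 and 189.5 in the aerobic-labelled ones. No group overlapped another, and the mutant held both the highest and the lowest level. Within the mutant GUT1 fell in batch relative to the chemostat by 1.07 ± 0.13 (adjusted p = 1.6e-05), with 159 ± 1.02 CPM in batch and 336 ± 20.1 in the chemostat. Between the wild-type groups the change of 0.17 ± 0.13 did not pass the test (adjusted p = 0.299), with 221 ± 22.4 CPM in the micro-aerobic-labelled libraries and 196 ± 8.91 in the aerobic-labelled ones.

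STL1, for the glycerol proton symporter, changed most among the 3 genes chosen by their homologs. It stood at 63.3 and 60.2 CPM in the mutant batch, 965 and 939 in the chemostat of the mutant, 517 and 555 in the micro-aerobic-labelled libraries, and 57.4 and 35.0 in the aerobic-labelled ones. The mutant chemostat and the micro-aerobic-labelled libraries lay far above the other 4 libraries. In the wild type STL1 rose in the micro-aerobic-labelled libraries by 3.54 ± 0.20 (adjusted p = 3.9e-09), with 536 ± 26.8 CPM there and 46.2 ± 15.8 in the aerobic-labelled ones. Within the mutant it fell in batch relative to the chemostat, with a change of -3.95 ± 0.19 (adjusted p = 1.8e-09), with 61.7 ± 2.21 CPM in batch and 952 ± 18.5 in the chemostat. The 2 low groups were the mutant batch and a wild-type chemostat, which differ in strain and medium as well as mode of cultivation. What the pattern of STL1 follows was not tested.

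Over the comparison of the micro-aerobic-labelled libraries with the aerobic-labelled ones, 3 of the 6 genes rose (OPAR_001303, GPD1 and STL1) and none fell. Of all genes tested, 45.5% were called, 23.2% as higher and 22.3% as lower. The median change of the 6 was 0.40, against 0.02 over all genes. Oxygen supply cannot be told apart here from glucose and Tween 80, which the labels also set higher in the micro-aerobic-labelled cultures.

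In the comparison of the mutant batch with the mutant chemostat, GUT1 and STL1 were called as lower, and GPD1 was not called. Of all genes tested 51.4% were called, 24.5% as higher and 26.8% as lower. GUT2, NDE1 and OPAR_001303 were called as higher, which makes 5 of the 6 called. These 3 were chosen with their low levels in the mutant known, and their values there are counts left in genes that are or may be deleted. Their calls are therefore not set against the share of all genes or read as regulated expression. The median change of the 6, 0.34, mixes them with the other 3 and describes neither set. The median over all genes was -0.02. Mode of cultivation and pH cannot be told apart in this comparison.

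**Figure D3:**
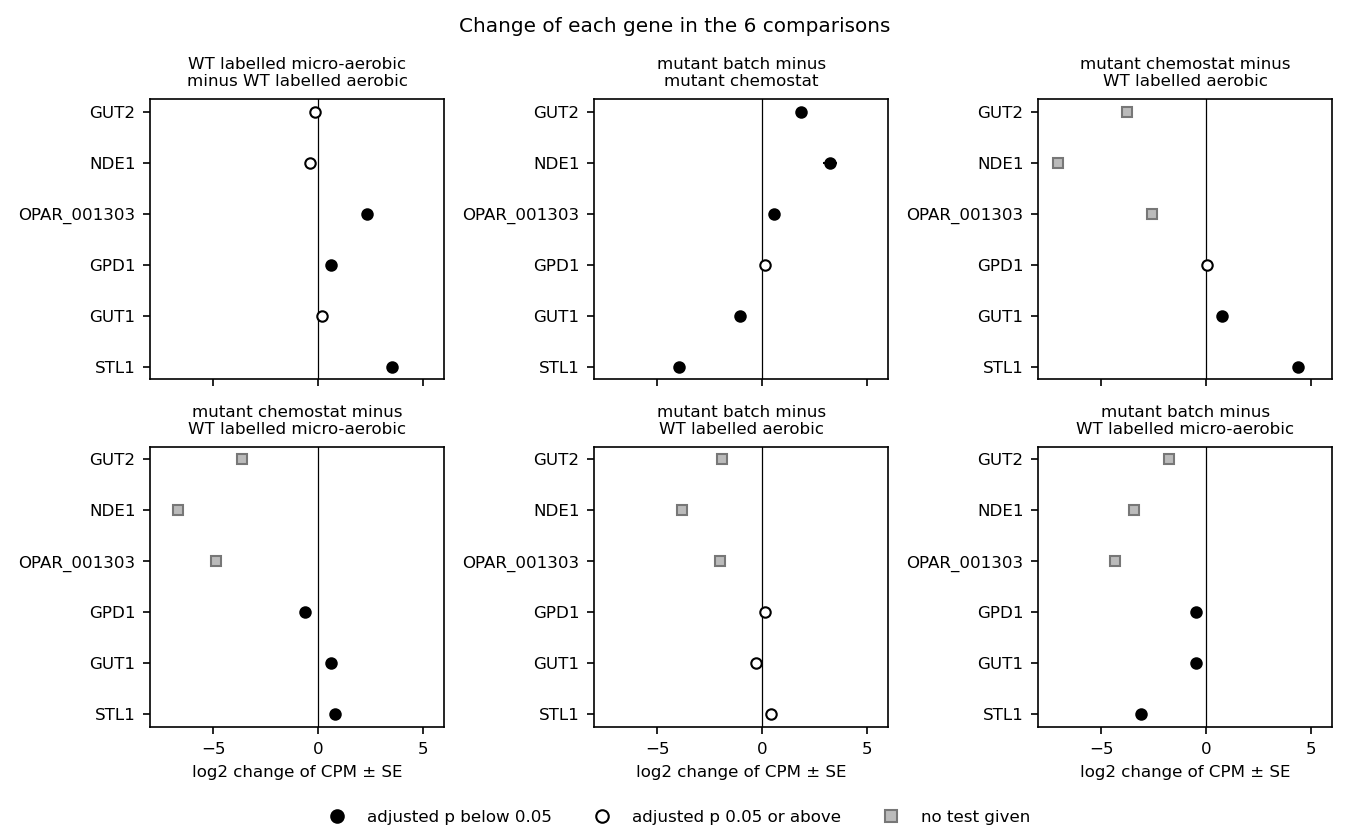
Log2 change of CPM ± SE of the 6 genes in each of the 6 comparisons. Filled circles have an adjusted p below 0.05, open circles do not, and grey squares are values with no test; STL1 lies at 3.54 between the wild-type groups, at -3.95 between mutant batch and chemostat and at 4.37 between mutant chemostat and the aerobic-labelled libraries.

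The mutant chemostat was set against each wild-type chemostat group for GPD1, GUT1 and STL1, the 3 genes chosen by their homologs. Against the aerobic-labelled libraries, STL1 rose by 4.37 ± 0.20 (adjusted p = 6.5e-10) and GUT1 by 0.78 ± 0.13 (adjusted p = 1.9e-04). GPD1 had a change of 0.03 ± 0.14 (adjusted p = 0.882) and overlapping groups. These 2 rises among 3 genes stand beside 60.7% of all genes called, 31.3% as higher and 29.4% as lower. The changes of GUT2, NDE1 and OPAR_001303 in the same comparison, described without a test, were -3.76 ± 0.15, -7.04 ± 0.28 and -2.56 ± 0.17.

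In the mutant chemostat set against the micro-aerobic-labelled libraries, STL1 rose by 0.83 ± 0.17 (adjusted p = 0.00473), GUT1 rose by 0.60 ± 0.13 (adjusted p = 0.00580) and GPD1 fell by 0.61 ± 0.14 (adjusted p = 0.00676). All 3 were called, against 27.1% of all genes (13.7% as higher and 13.4% as lower), but without micro-aerobic-labelled replicate 2 none was (adjusted p = 0.0525 for STL1, 0.120 for GUT1 and 0.0997 for GPD1), and the number of all genes called was then 280 in place of 1425. Over all genes the root mean square difference of log2 CPM was 0.568 between the mutant chemostat and the micro-aerobic-labelled libraries and 1.2 between it and the aerobic-labelled ones. The changes of GUT2, NDE1 and OPAR_001303 were -3.61 ± 0.15, -6.67 ± 0.28 and -4.87 ± 0.18. Comparisons that set 1 mutant group against both wild-type groups share its libraries, so their values stand side by side and are not independent.

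Between the mutant batch and the aerobic-labelled libraries, of GPD1, GUT1 and STL1 none passed edgeR's test and 48.2% of all genes did, 24% as higher and 24.2% as lower. GPD1 had a change of 0.16 ± 0.14 (adjusted p = 0.353), GUT1 one of -0.30 ± 0.13 (adjusted p = 0.0757) and STL1 one of 0.42 ± 0.19 (adjusted p = 0.0776). At an unadjusted p below 0.05 there were 2 of the 3, and with DESeq2's Wald test 0 were called. The wild-type libraries labelled aerobic differed among themselves in STL1 (57.4 and 35.0 CPM), and without replicate 1 of that group its change was 0.84 (adjusted p = 0.00121). With libraries scaled by the upper quartile or by totals alone STL1 was called as well (adjusted p = 0.0155 and 0.00696). For GUT2, NDE1 and OPAR_001303 the changes were -1.91 ± 0.13, -3.81 ± 0.21 and -2.01 ± 0.16.

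Against the micro-aerobic-labelled libraries, STL1 fell in the mutant batch by 3.12 ± 0.19 (adjusted p = 1.6e-08), GPD1 by 0.48 ± 0.14 (adjusted p = 0.0115) and GUT1 by 0.47 ± 0.13 (adjusted p = 0.0101). All 3 were called as lower, against 43.8% of all genes, 22.2% as higher and 21.6% as lower. STL1 was called whichever library was left out. GPD1 was not called without micro-aerobic-labelled replicate 2 or without either batch library (adjusted p = 0.0822 to 0.115), and GUT1 not without micro-aerobic-labelled replicate 1 or either batch library (adjusted p = 0.0910 to 0.125). The changes of GUT2, NDE1 and OPAR_001303 were -1.76 ± 0.13, -3.45 ± 0.21 and -4.32 ± 0.17.

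Per kilobase of gene, the order of the 6 genes was not the same in any 2 groups. In the mutant batch GPD1 (88.2 CPM per kb) and GUT1 (83.7) led, followed by GUT2 (53.1), STL1 (37.1), OPAR_001303 (18.8) and NDE1 (3.01), with no overlap between neighbours. In the mutant chemostat STL1 led with 573 CPM per kb, ahead of GUT1 (176) and GPD1 (80.4), while GUT2 (14.7) and OPAR_001303 (12.8) overlapped and NDE1 stood at 0.311. NDE1 was thus last in both mutant groups.

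In the micro-aerobic-labelled libraries OPAR_001303 led with 375 CPM per kb, followed by STL1 (323) and GUT2 (179.8), then GPD1 (123) and GUT1 (116), which overlapped, and NDE1 (32.7). In the aerobic-labelled ones GUT2 led with 199.7 CPM per kb, followed by GUT1 (103), GPD1 (79.0) and OPAR_001303 (75.7), the last pair overlapping, NDE1 (42.1) and STL1 (27.8). GPD1 carries a long stretch outside its coding sequence, with 1146 coding bases of 2186. Per coding kilobase it reached 168 CPM in the mutant batch, 153 in the mutant chemostat, 234 in the micro-aerobic-labelled libraries and 151 in the aerobic-labelled ones, so its place in these orders depends on which length is used.

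**Figure D4:**
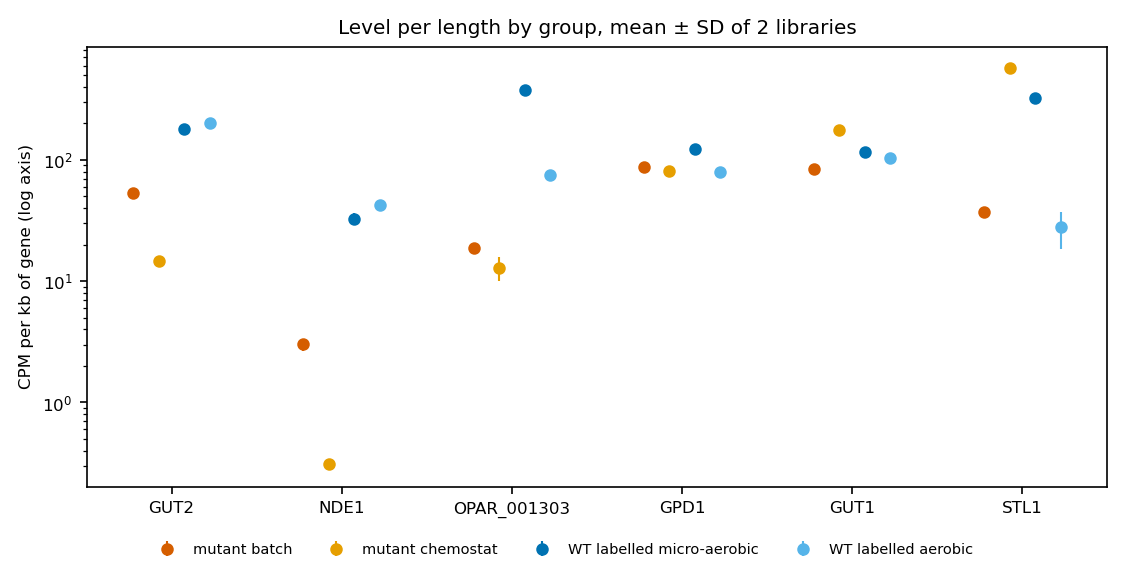
Mean CPM per kilobase of gene ± SD of the 2 libraries of each group on a log axis, for the mutant batch, the mutant chemostat, the wild type labelled micro-aerobic and the wild type labelled aerobic. NDE1 is lowest in both mutant groups (3.01 and 0.311), OPAR_001303 is highest in the wild type labelled micro-aerobic (375), and GPD1 stays between 79.0 and 123 in all 4 groups.

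The genes closest to each member in pattern were found by the root mean square difference of log2 CPM over the 8 libraries, each gene centred on its own mean. The closest to GUT2 was OPAR_004336 (difference 0.595), annotated as urea amidolyase, the enzyme that breaks down urea. It averaged 136 CPM in the mutant batch, 80.7 in the mutant chemostat, 364 in the micro-aerobic-labelled libraries and 408 in the aerobic-labelled ones. For NDE1 the closest was OPAR_003876 (0.592), the homolog of YNR060W, and the second was OPAR_002760 (1.00), annotated as a urea active transporter. OPAR_002760 averaged 30.3, 46.5, 427 and 1194 CPM in the same order of groups. Urea is named in the medium of the wild type alone, so strain and urea cannot be told apart in these patterns.

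For OPAR_001303 the closest were OPAR_002095 (0.784), which has no homolog in the table, and OPAR_005201 (0.906), the homolog of YDR531W. The patterns closest to GUT1 lay much nearer, with OPAR_002542, annotated as ornithine aminotransferase, at 0.0782 and OPAR_003073 at 0.105. OPAR_002542 averaged 87.8 CPM in the mutant batch, 182 in the mutant chemostat, 125 in the micro-aerobic-labelled libraries and 114 in the aerobic-labelled ones. For STL1 the closest were OPAR_002371 (0.343) and OPAR_004526 (0.368), both without a homolog in the table. OPAR_002371 averaged 34.9, 547, 489 and 38.8 CPM in the same order of groups, and so had the same high and low groups as STL1. GPD1 was not included, since its group means spanned less than 2-fold.

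Other genes of glycerol metabolism were taken from a list of S. cerevisiae names. Beside the members, 4 were measured: GUP1, a membrane acyltransferase gene first found through glycerol uptake, DAK1 for dihydroxyacetone kinase, GCY1 for a glycerol dehydrogenase, and HOG1 for the kinase of the osmotic stress response. In the micro-aerobic-labelled libraries 2 of the 4 rose and 1 fell (median 0.29), beside 23.2% of all genes called as higher and 22.3% as lower. DAK1 averaged 185 ± 35.0 CPM in the micro-aerobic-labelled libraries and 34.4 ± 6.3 in the aerobic-labelled ones, a rise of 2.43 ± 0.26 (adjusted p = 4.5e-06). GUP1 rose by 0.73 ± 0.18 and GCY1 fell by 0.69 ± 0.14. DAK1 is also the enzyme that leads methanol carbon into glycolysis in methylotrophic yeasts.

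Within the mutant, 3 of the 4 fell in batch relative to the chemostat and none rose (median -0.63), beside 26.8% of all genes called as lower and 24.5% as higher. DAK1 averaged 61.2 ± 3.68 CPM in batch and 258 ± 112 in the chemostat, a change of -2.07 ± 0.24 (adjusted p = 1.2e-05), and GUP1 changed by -0.92 ± 0.17 (adjusted p = 5.6e-04). GCY1 was near the threshold (-0.35 ± 0.13, adjusted p = 0.0441). It was not called with RLE scaling, no filter on low counts, DESeq2 or a fit of the 2 groups alone (adjusted p = 0.0507 to 0.0625), which each left 2 falls. Nor was it called without batch replicate 1, batch replicate 2 or chemostat replicate 1 (adjusted p = 0.172 to 0.257). With the replicate number as a block it was not called either (adjusted p = 0.0659). DAK1, GUP1, GUT1 and STL1 were thus each higher in the mutant chemostat than in the batch. GPD1 and HOG1 were not called, and the counts left in GUT2 went the other way. The set was not tested.

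Of the 4, 2 rose and 1 fell in the mutant chemostat against the aerobic-labelled libraries, beside 31.3% and 29.4% of all genes, and 2 rose and none fell against the micro-aerobic-labelled ones, beside 13.7% and 13.4%. Against the aerobic-labelled libraries, DAK1 rose by 2.91 ± 0.26 (adjusted p = 6.3e-07) and GUP1 by 1.26 ± 0.18 (adjusted p = 4.5e-05), while HOG1 fell by 0.44 ± 0.13 (adjusted p = 0.00907). HOG1 was not called with upper quartile scaling or library totals alone (adjusted p = 0.0863 and 0.322). Against the micro-aerobic-labelled libraries, GCY1 rose in the mutant chemostat by 0.74 ± 0.13 (adjusted p = 0.00210). GUP1 rose by 0.53 ± 0.17 (adjusted p = 0.0362), and this call was lost without either micro-aerobic-labelled library or chemostat replicate 1 (adjusted p = 0.139 to 0.260). DAK1 was higher by 0.48 ± 0.23 without passing the test (adjusted p = 0.141).

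In the mutant batch 1 of the 4 rose and 1 fell against each wild-type group, beside 22.2% of all genes higher and 21.6% lower against the micro-aerobic-labelled libraries and 24% and 24.2% against the aerobic-labelled ones. Against the micro-aerobic-labelled libraries, DAK1 fell by 1.59 ± 0.24 (adjusted p = 1.4e-04) and GCY1 rose by 0.40 ± 0.13 (adjusted p = 0.0292). The GCY1 call was lost on leaving out any of the 4 libraries (adjusted p = 0.116 to 0.172). Against the aerobic-labelled ones, DAK1 rose by 0.84 ± 0.26 (adjusted p = 0.0165) and HOG1 fell by 0.42 ± 0.13 (adjusted p = 0.0142). DAK1 was not called there without aerobic-labelled replicate 2 or batch replicate 2 (adjusted p = 0.146 and 0.0566), nor HOG1 without aerobic-labelled replicate 1 or either batch library (adjusted p = 0.0703 to 0.166). With upper quartile scaling or library totals alone HOG1 was not called either (adjusted p = 0.0898 and 0.137), and the list then held 2 rises and no fall.

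NADH of the cytosol can also be oxidised by exchange with the mitochondrial matrix, through the malate-aspartate and ethanol-acetaldehyde shuttles known from S. cerevisiae. Of a list of carriers and enzymes of such shuttles and other NADH reactions 11 genes were measured. Between the wild-type groups 6 of the 11 rose in the micro-aerobic-labelled libraries and 3 fell (median 0.46), beside 23.2% of all genes called as higher and 22.3% as lower. SFC1, for the succinate-fumarate carrier, averaged 624 ± 20.9 CPM in the micro-aerobic-labelled libraries and 71.0 ± 6.17 in the aerobic-labelled ones. MDH1, paired by homology with the mitochondrial malate dehydrogenase gene but annotated as the cytoplasmic enzyme, rose by 1.85 ± 0.13 (adjusted p = 6.7e-08) and AGC1, for the aspartate-glutamate carrier, by 1.39 ± 0.15 (adjusted p = 4.7e-06).

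Within the mutant 3 of the 11 rose in batch and 5 fell (median -0.03), beside 24.5% of all genes called as higher and 26.8% as lower. AAT1, for the mitochondrial aspartate aminotransferase, averaged 1316 ± 44.4 CPM in batch and 176 ± 5.64 in the chemostat, a rise of 2.90 ± 0.14 (adjusted p = 1.6e-09). OAC1, for the oxaloacetate carrier, rose by 1.93 ± 0.14 (adjusted p = 1.1e-07), and SFC1 fell by 1.95 ± 0.14 (adjusted p = 7.7e-08). The cytosolic aminotransferase gene AAT2 had a change of -1.74 ± 0.16, the other way from AAT1 (adjusted p = 9.4e-07).

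In the mutant chemostat 4 of the 11 rose and 4 fell against the aerobic-labelled libraries (median -0.08), beside 31.3% and 29.4% of all genes. Against the micro-aerobic-labelled ones none rose and 4 fell (median -0.21), beside 13.7% and 13.4%. AAT1 averaged 176 ± 5.64 CPM in the mutant chemostat, against 679 ± 67.5 in the micro-aerobic-labelled libraries and 1394 ± 6.90 in the aerobic-labelled ones, with changes of -1.95 ± 0.14 (adjusted p = 3.1e-07) and -2.99 ± 0.14 (adjusted p = 8.1e-10). Against the aerobic-labelled libraries SFC1 rose by 1.91 ± 0.14 and MDH1 by 1.64 ± 0.13. Against the micro-aerobic-labelled ones SFC1 fell by 1.23 ± 0.13, and ADH2, for an alcohol dehydrogenase, by 1.26 ± 0.17 (adjusted p = 2.1e-04). MDH1 averaged 712 ± 14.8 CPM in the mutant chemostat and 823 ± 55.1 in the micro-aerobic-labelled libraries, a change that did not pass the test (adjusted p = 0.242).

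The alcohol dehydrogenase genes were lowest in the mutant batch. ADH2 averaged 5182 ± 197 CPM in the mutant batch, against 32815 ± 2719 in the micro-aerobic-labelled libraries and 23867 ± 3433 in the aerobic-labelled ones, with changes of -2.66 ± 0.18 and -2.20 ± 0.18 (adjusted p = 5.5e-08 and 2.9e-07). ADH3, for the mitochondrial alcohol dehydrogenase, averaged 29.1 ± 0.263 CPM in the mutant batch, against 135 ± 12.3 in the micro-aerobic-labelled libraries and 98.1 ± 0.708 in the aerobic-labelled ones, with changes of -2.21 ± 0.15 and -1.75 ± 0.15. In the batch 3 of the 11 rose and 5 fell against the micro-aerobic-labelled libraries (median -0.24), beside 22.2% and 21.6% of all genes. Against the aerobic-labelled ones 3 rose and 4 fell (median -0.08), beside 24% and 24.2%. Against the aerobic-labelled libraries MDH1 rose in the mutant batch by 1.61 ± 0.13 (adjusted p = 3.5e-07).

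Complex I, which oxidises NADH inside mitochondria in O. parapolymorpha and is lacking in S. cerevisiae, was represented by 3 genes found by the words of their product names (OPAR_000722, OPAR_002357 and OPAR_003790). All 3 rose in the micro-aerobic-labelled libraries relative to the aerobic-labelled ones, by 0.84 ± 0.13, 1.19 ± 0.14 and 1.19 ± 0.13, beside 23.2% of all genes called as higher. All 3 fell in the mutant batch relative to the mutant chemostat, with changes of -0.99 ± 0.13, -1.72 ± 0.14 and -0.90 ± 0.13, and relative to the micro-aerobic-labelled libraries, with changes of -1.04 ± 0.13, -1.16 ± 0.14 and -0.97 ± 0.13. Of all genes, 26.8% and 21.6% were called as lower in these comparisons. In the mutant chemostat all 3 rose against the aerobic-labelled libraries, as did 31.3% of all genes, OPAR_002357 most, with 637 ± 110.0 CPM in the mutant chemostat and 190.2 ± 5.03 in the aerobic-labelled ones. Against the micro-aerobic-labelled libraries OPAR_002357 rose by 0.56 ± 0.14 (adjusted p = 0.0124), a call lost without either micro-aerobic-labelled library or chemostat replicate 1 (adjusted p = 0.0685, 0.133 and 0.0845). Between the mutant batch and the aerobic-labelled libraries the changes of the 3 were -0.20 ± 0.13, 0.03 ± 0.14 and 0.22 ± 0.13. The count called there was 0 by edgeR, also at an unadjusted p below 0.05, and 0 by DESeq2, while upper quartile scaling and library totals alone each gave 1.

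Of the type II NADH dehydrogenases of S. cerevisiae, NDI1, for the enzyme of the matrix side, and NDE2 had no gene paired with them, and NDE1 was the one found. The wider family with disulphide oxidoreductase domain words or numbers in the annotation held 52 genes, of which GUT2, NDE1 and OPAR_001303 are 3, and 48 others were tested. Among these 48, 17 rose and 20 fell between the wild-type groups (median 0.03), and the same numbers of calls were counted in the mutant chemostat and in the mutant batch against the aerobic-labelled libraries. The counts were 10 rises and 14 falls between mutant batch and mutant chemostat, 15 and 10 between mutant batch and the micro-aerobic-labelled libraries, and 12 and 7 between mutant chemostat and the micro-aerobic-labelled libraries. Over all genes the shares higher and lower were 23.2% and 22.3% between the wild-type groups, 31.3% and 29.4% in the mutant chemostat and 24% and 24.2% in the mutant batch against the aerobic-labelled libraries. They were 24.5% and 26.8% between mutant batch and chemostat, and against the micro-aerobic-labelled libraries 22.2% and 21.6% in the batch and 13.7% and 13.4% in the chemostat. The count in the mutant chemostat against the micro-aerobic-labelled libraries was 5 and 2 without micro-aerobic-labelled replicate 2, and 7 and 4 without chemostat replicate 1. The medians ran from -0.09 to 0.18 over the 6 comparisons, and the family was not low as a whole in the mutant. OPAR_001195 averaged 12.1 ± 2.22 CPM in the mutant batch, 6.74 ± 0.903 in the mutant chemostat and 11.3 ± 2.15 in the micro-aerobic-labelled libraries, against 2047 ± 53.9 in the aerobic-labelled ones. OPAR_002900 averaged 50.6 ± 1.59 CPM in the mutant batch, against 6405 ± 825 in the mutant chemostat, and 6708 ± 15 in the micro-aerobic-labelled libraries, against 116 ± 13.5 in the aerobic-labelled ones.

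**Figure D5:**
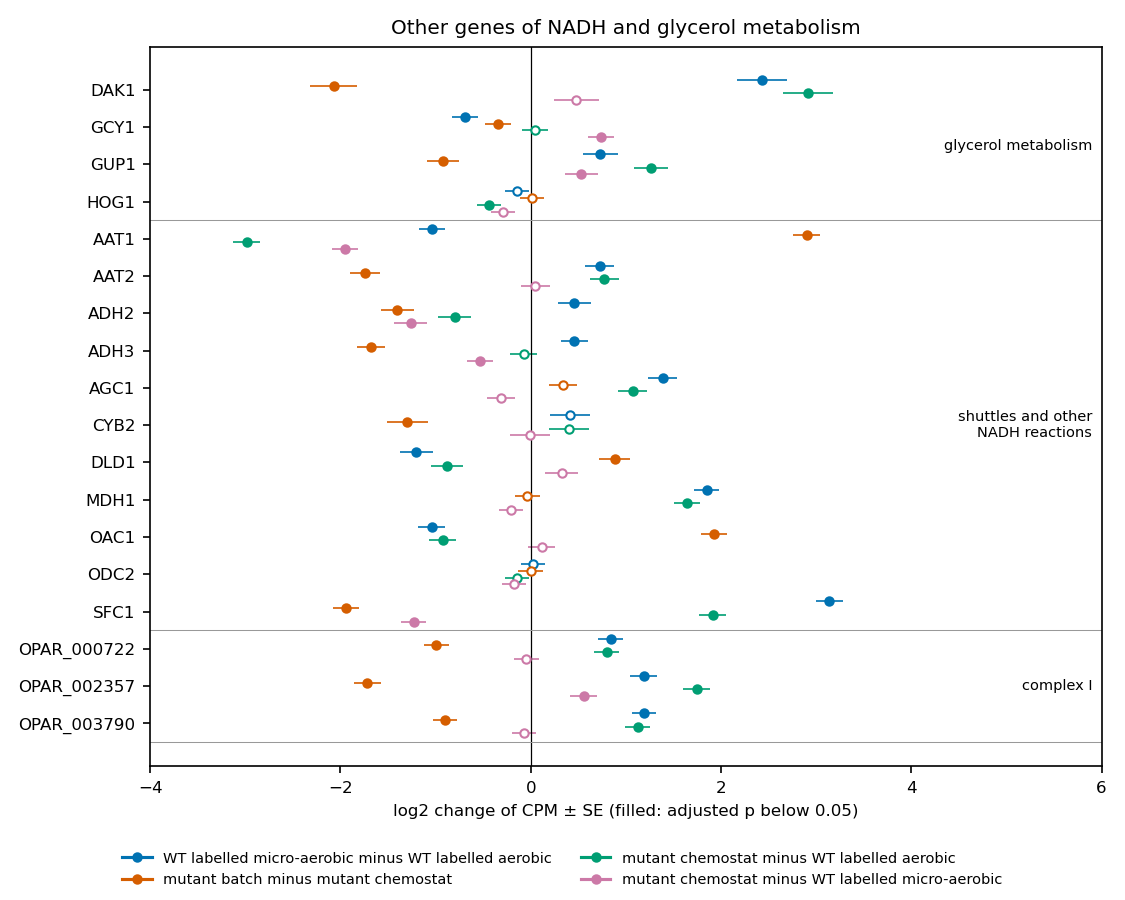
Log2 change of CPM ± SE of the other genes of glycerol metabolism, of shuttles and other NADH reactions and of complex I in 4 comparisons, filled where the adjusted p is below 0.05. DAK1, SFC1 and the complex I genes lie to the right between the wild-type groups and to the left between mutant batch and chemostat, while AAT1 (2.90) and OAC1 (1.93) lie to the right between mutant batch and chemostat.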

How the data were processed

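The authors deposited counts of read pairs per gene, not normalized. Per the file headers, featureCounts counted gene features without a strand setting; per the submitters' processing notes, the tools were, in no stated order, edgeR 3.28.1, featureCounts 1.6.0, Bowtie 1.2.1.1 and SAMtools 1.3.1. Of the genome only strain DL-1, in the deposited annotation, is named, and a build was not given in sources used here. The 4 columns of other libraries were not used. All 6 genes' locus tags matched the RefSeq table of the same species, used for names only.

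Differences were tested by edgeR 4.0.16 (R 4.3.3): filterByExpr, TMM scaling, all 8 libraries with a mean per group, two-sided quasi-likelihood F test, Benjamini-Hochberg adjustment over 5265 genes at 0.05. The SE of a change was its size divided by the root of F. The series text calls the 2 libraries of a group biological replicates without saying whether the cultures were separate. The p-values therefore reflect spread among these samples alone. The design left 4 residual degrees of freedom, and edgeR's fit also drew the spread of each gene towards that of the other genes. Small p-values thus rest in part on spread borrowed across genes. Counting-error chi-square per degree of freedom between replicates was 38.1 in the mutant chemostat and 24.5 in the aerobic-labelled libraries. It was 5.13 in the mutant batch and 6.72 in the micro-aerobic-labelled libraries. All groups shared an estimate of spread per gene, so the SEs do not follow these differences between groups. Steps were tested on simulated data.

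The members, lists and comparisons were chosen with earlier results of these data known. Named genes were all members, up to 3 called genes per list and comparison with the largest change, the 2 genes nearest to each member in pattern (1 CPM added before log2), neighbours, and genes with the domain entries of OPAR_001303; AAT2 and the genes of oxygen-using steps were chosen after their values were seen. Alternatives were RLE, upper quartile and no scaling, no filter, DESeq2 1.42.0, only the compared groups, each library left out, and the number in the mutant titles as a block.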

Additional observations from a re-analysis of the deposited data

How the results depend on the processing

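Of the members' changes, 335 values under alternatives kept direction and side of the threshold (or, untested, stayed within 1 SD), 15 untested values moved by more, 12 lost a call, 5 gained one and 5 turned sign. The sign turned for GPD1 between mutant chemostat and libraries labelled aerobic (0.03, not called) with RLE scaling (-0.0049), with DESeq2 (-0.0048) and with a library left out (-0.10 to 0.13), and for GUT2 between the wild-type groups (-0.15, not called) on library totals alone (0.0062). Members called between mutant batch and libraries labelled aerobic numbered 0, but 1 with upper quartile scaling, 2 on library totals alone, 1 in a fit of the 2 groups and 0 to 1 with a library left out. With a library left out, 1 to 2 in place of 3 were called between mutant batch and libraries labelled micro-aerobic, and 0 to 3 between mutant chemostat and those libraries. Genes called numbered 2704 between mutant batch and chemostat (1745 without batch replicate 1), 2537 between batch and labelled aerobic (1664 without batch replicate 2), 2308 between batch and labelled micro-aerobic (1462 to 1500 without batch replicate 1 or 2 or micro-aerobic-labelled replicate 2), 1425 between chemostat and labelled micro-aerobic (280 to 670 without either micro-aerobic-labelled library or chemostat replicate 1) and 2398 between the wild-type groups (1593 without micro-aerobic-labelled replicate 1); the cause was not tested. Library totals alone moved the median of all genes by 0.28, 0.18, 0.16, 0.13 and -0.10 in 5 comparisons, and upper quartile scaling by 0.18 and 0.16. The share of calls that were higher was 51.6% between mutant chemostat and labelled aerobic (63.5% by upper quartile, 70.8% by totals), 50.7% between chemostat and labelled micro-aerobic (65.7% and 74.4%), 49.7% between batch and labelled aerobic (63.9% and 65.9%), and 51% between the wild-type groups (64.7% by totals). The mutant titles share numbers across batch and chemostat, but same-numbered libraries did not deviate together (r = -0.245 over 5265 genes). With the replicate block 2569 genes and 5 members were called, and with the crossed pairing, added after seeing the data, 2806 genes and 5 members. The changes of NDE1 in the mutant chemostat rest on 5 and 6 counts, so their SEs, also against the wild type, lie below counting error.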
